A study of Drosophila melanogaster with 2 samples.

Results

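The antioxidant defence genes described here are 10 genes picked by symbol, namely *Sod*, *Sod2*, *Cat*, *Jafrac1*, *Jafrac2*, *Prx5*, *Trxr-1*, *Trx-2*, *Keap1* and *cnc*. All 10 were found among the 14794 genes of the deposited expression table. The flies were adult males, collected whole within days of eclosion, and polyadenylated RNA was sequenced. One library came from males homozygous for *heph2*, a *P* element insertion in an intron of *hephaestus*, the gene of the *Drosophila* polypyrimidine tract-binding protein, which leaves the males sterile. The other came from *heph2*/TM3 males, which the study used as its wild-type control, so the control also carries a *heph2* chromosome, here over the balancer TM3, a rearranged chromosome 3. Since homozygous *heph2* males lack TM3, the loss of *hephaestus* function and the make-up of chromosome 3 cannot be told apart. Each genotype had 1 library, so the differences below compare 2 libraries, have no replicate check and carry no p-value.

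Superoxide, a by-product of respiration, is turned into hydrogen peroxide by superoxide dismutases, and peroxide is then removed by catalase and by peroxiredoxins. Peroxiredoxins are recharged by thioredoxin, which is itself reduced by thioredoxin reductase with NADPH, and in *Drosophila*, which has no glutathione reductase, this reductase serves glutathione too. Cytosol and mitochondria hold separate sets of these enzymes. The transcription factor Cnc, the fly counterpart of mammalian Nrf2, switches on many detoxification and antioxidant genes, and Keap1 holds it back.

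None of the 10 genes differed by 2-fold or more between the libraries, where 2.79% of the 11962 genes compared were at least 2-fold higher and 2.44% at least 2-fold lower in *heph2*. This background of 334 higher and 292 lower genes became 171 and 594 with scaling on mapped reads and 104 and 935 with centring on the cytosolic ribosomal protein genes, and none of the 10 reached 2-fold under either. The mitochondrial enzymes stood highest, with *Sod2* at 1.64 times and *Prx5* at 1.52 times the control level. The cytosolic enzymes *Jafrac1* and *Sod* followed at 1.46 and 1.41 times the control level. *Cat*, *cnc* and *Trxr-1* were at 95.7%, 95.8% and 101% of the control level, and *Keap1* was at 83.3% of it. At least 1.5-fold, 2 of the 10 genes were higher and 0 were lower, beside 9.16% and 7.26% of all genes compared. The median log2 ratio of *heph2* over control was 0.19 over the 10 genes and 0.01 over all genes compared, but that of the 10 genes was -0.09 with scaling on mapped reads and -0.25 with centring on ribosomal protein genes. Those scalings put the median of all genes at -0.26 and -0.43.

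The values are FPKM, read numbers corrected for gene length and library depth. A gene was compared if neither library listed it at 0 and its mean reached 1 FPKM. *hephaestus* itself (*heph*, chromosome 3R) had 27.2 FPKM in *heph2* and 44.0 FPKM in the control. This value per gene also counts reads of truncated transcripts, so it does not give the level of full-length ones. The paper reports that nearly all *hephaestus* transcripts were truncated in *heph2*, with few reads downstream of the insertion. Both libraries carried male and testis transcripts, with *roX1* at 70.6 FPKM in *heph2* and 91.8 FPKM in the control. The other male RNA, *roX2*, had 24.6 FPKM in *heph2* and 22.9 FPKM in the control. Several tissue markers differed between the libraries. The 6 genes listed for flight muscle had a median log2 ratio of 1.48, and the 8 testis genes had one of 0.65. Against genes of like transcript length and mean FPKM these medians were 1.25 and 0.20. The flight muscle genes fell apart, with *Act88F*, *fln* and *TpnC4* at 2.21 to 2.68 and *Mf*, *up* and *wupA* at 0.45 to 0.76. The median was -0.87 for 5 genes of the accessory gland, and the 9 female eggshell genes compared had one of -5.35. The 10 eggshell genes listed summed to 14.7 FPKM in *heph2* against 213 FPKM in the control. Only *Cp15* was higher, and it made up most of the sum in *heph2*, with 10.2 FPKM against 8.36 FPKM in the control. Whether these differences in tissue markers bear on the antioxidant genes was not tested, and in whole flies a change in the amount of a tissue and a change of RNA per cell cannot be told apart.

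*Sod* and *Sod2* were higher in *heph2* under every scaling tried. *Sod* (FBgn0003462, chromosome 3L from 11105381 to 11106838, in coordinates of FlyBase r5.44 as for all positions here; now named *Sod1*) encodes the copper and zinc enzyme of the cytosol. It had 936 FPKM in *heph2* and 664 FPKM in the control, a log2 ratio of 0.50, and was the most abundant of the 10 genes in both libraries. *Sod2* (FBgn0010213, chromosome 2R from 12660421 to 12661413) encodes the manganese enzyme of the mitochondrial matrix. It had 539 FPKM in *heph2* and 329 FPKM in the control, a log2 ratio of 0.71. Of all genes compared, 94.1% had a lower ratio than *Sod2* and 87.8% a lower ratio than *Sod*. Within a library the ratio of *Sod2* to *Sod* is not moved by a factor common to all genes, and it was 0.576 in *heph2* and 0.496 in the control. The dismutase related to *Sod* that is now named *Sod3*, listed as *CG9027*, was at 148 FPKM in *heph2* and 140 FPKM in the control. The copper chaperone of superoxide dismutase, *CCS*, had 30.8 FPKM in *heph2* and 29.1 FPKM in the control. Both had lower log2 ratios than *Sod* and *Sod2*, at 0.09 and 0.08, and against genes of like transcript length and mean FPKM they were at -0.26 and -0.15.

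**Figure D1:**
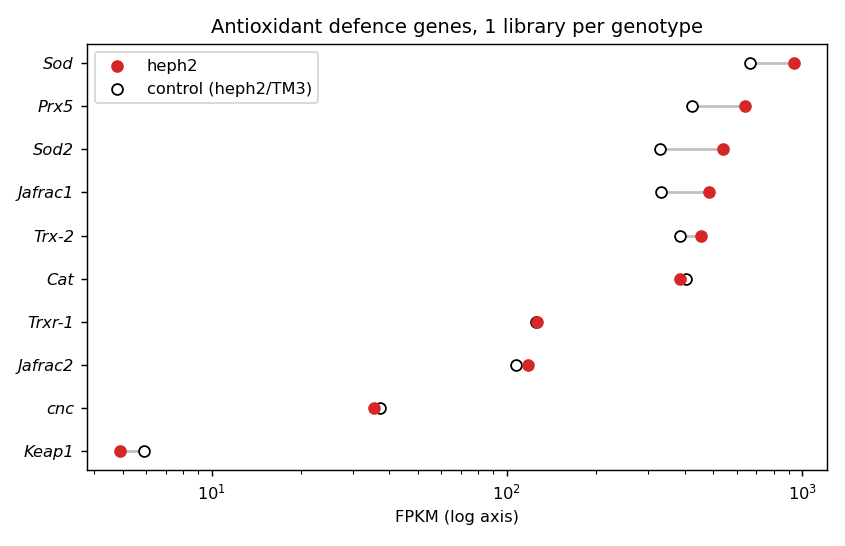
FPKM (log axis) of the 10 antioxidant defence genes in the *heph2* library (filled) and the control library (open), with 1 library each, ordered by level in *heph2*. *Sod*, *Prx5*, *Sod2* and *Jafrac1* lie visibly to the right in *heph2*, while the 2 points of *Cat*, *Trxr-1* and *cnc* nearly coincide.

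Catalase had a lower log2 ratio than *Sod* and *Sod2*. *Cat* (FBgn0000261, chromosome 3L from 18815706 to 18821294), which encodes the peroxisomal enzyme that splits hydrogen peroxide, had 387 FPKM in *heph2* and 404 FPKM in the control, a log2 ratio of -0.06. In order of level, *Cat* was the third of the 10 genes in the control but the sixth in *heph2*, while *Sod2* was the third in *heph2* and the sixth in the control. The level of *Cat* relative to *Sod* was 0.413 in *heph2* and 0.609 in the control, a difference of -0.56 on the log2 scale. A factor common to all genes of a library leaves this difference as it is, but it shrank to -0.20 when each gene was set against others of like length and level. The catalase-type genes *Irc* and *CG9314* had log2 ratios of 0.22 and 0.34.

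Of the peroxiredoxins among the 10 genes, the cytosolic and the mitochondrial one were higher in *heph2*, and the secretory one differed little. *Jafrac1* (FBgn0040309, chromosome X from 13223881 to 13226030; now *Prx2*), the cytosolic thioredoxin peroxidase, had 484 FPKM in *heph2* and 331 FPKM in the control, a log2 ratio of 0.55. *Prx5* (FBgn0038570, chromosome 3R, in a region from 13991164 to 13992967), found mainly in mitochondria, had 641 FPKM in *heph2* and 422 FPKM in the control, a log2 ratio of 0.60. *Jafrac2* (FBgn0040308, chromosome 3L, in a region from 3042375 to 3046810; now *Prx4*), the peroxiredoxin of the endoplasmic reticulum, had 118 FPKM in *heph2* and 107 FPKM in the control, a log2 ratio of 0.13 that became -0.14 on mapped reads. The value of *Prx5* is less certain than the others. Its locus entry also lists *CG7215*, and in the BDGP6 annotation 100% of the exon bases of *Prx5* lie within exons of *CG7215* on the same strand, so reads were divided between both genes by the authors' software. *CG7215* had 77.5 FPKM in *heph2* and 55.9 FPKM in the control, a log2 ratio of 0.47.

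All 9 peroxiredoxin genes examined were higher in *heph2*, beside 6159 of the 11962 genes compared, with a median log2 ratio of 0.55. With scaling on mapped reads 8 were higher, and with centring on the ribosomal protein genes 6 were. The median of all genes was then -0.26 and -0.43. Against genes of like length and level 7 were higher, with a median of 0.20. The other mitochondrial peroxiredoxin, *Prx3*, which the table lists as *Prx5037*, had 146 FPKM in *heph2* and 102 FPKM in the control. *Prx2540-2* was as abundant as *Jafrac1*, with 522 FPKM in *heph2* and 338 FPKM in the control. Its neighbours on chromosome 2R, *Prx2540-1* and *CG12896*, are close copies of it, so the values of all 3 are uncertain. *CG12896* had 2.56 FPKM in *heph2* and 1.10 FPKM in the control, from about 50 and 33 reads. *Prx6005* and *CG6888* had log2 ratios of 0.33 and 0.34.

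The genes of the thioredoxin system, which recharges the peroxiredoxins, differed among themselves in the deposited values. *Trx-2* (FBgn0040070, chromosome 2L from 9613165 to 9616048; now *Trx2*) encodes the general cytosolic thioredoxin, and it had 456 FPKM in *heph2* and 384 FPKM in the control, a log2 ratio of 0.25 that became -0.03 on mapped reads and -0.19 relative to ribosomal protein genes. *Trxr-1* (FBgn0020653, chromosome X, in a region from 8135531 to 8142072; now *Trxr1*), the reductase, had 126 FPKM in *heph2* and 125 FPKM in the control, a log2 ratio of 0.01 that became -0.27 on mapped reads and -0.43 relative to ribosomal protein genes. This gene makes both a cytosolic and a mitochondrial form from different first exons, and a value per gene does not separate them. *Trxr-1* shares its locus entry with *sni*, which lies on the opposite strand and covers 13.8% of its exon bases in BDGP6. *sni* had 24.3 FPKM in both libraries. *Trx-2* and *Trxr-1* were both at -0.10 against genes of like transcript length and mean FPKM. A mitochondrial thioredoxin, *CG8993*, had 275 FPKM in *heph2* and 166 FPKM in the control. Its log2 ratio of 0.73 was close to the 0.71 of *Sod2*, and its locus entry holds another gene too. Against genes of like length and level, *CG8993* was at 0.29 and *Sod2* at 0.36. *Trxr-2*, a second reductase, had 32.1 FPKM in *heph2* and 27.8 FPKM in the control, and was at 0.18 on that scale.

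Of the 2 germline thioredoxins, *TrxT* had a log2 ratio near that of *Trx-2*, and *dhd* had a far lower one. *TrxT*, the testis form, had 503 FPKM in *heph2* and 400 FPKM in the control, a log2 ratio of 0.33 beside 0.25 for *Trx-2*. *dhd*, the form of the female germline, had 4.94 FPKM in *heph2* and 30.1 FPKM in the control, a log2 ratio of -2.61 that was lower than that of all but 0.268% of the genes compared. *Yp1*, *Yp2* and *Yp3*, the yolk genes that mark females, summed to 14.7 FPKM in *heph2* and 114 FPKM in the control, and the part of female RNA in the *dhd* value was not tested.

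The regulators were the least abundant of the 10 genes, and both log2 ratios were below 0. *Keap1* (FBgn0038475, chromosome 3R from 12899661 to 12905665) had 4.90 FPKM in *heph2* and 5.88 FPKM in the control, a log2 ratio of -0.26. About 404 reads in *heph2* and 748 in the control stood behind these values, which gives the ratio a counting error of 0.09 (SE). *cnc* (FBgn0000338, chromosome 3R, in a region from 19004339 to 19047683) had 35.5 FPKM in *heph2* and 37.0 FPKM in the control, a log2 ratio of -0.06. The entry of *cnc* covers *fzo* and *Ir* too, and pools 16 transcripts in BDGP6, so it cannot tell the long Cnc isoform that acts in the stress response from the shorter ones. *maf-S*, the small Maf partner of Cnc, had 157 FPKM in *heph2* and 120 FPKM in the control. *GstD1*, a glutathione transferase gene widely used as a Cnc reporter, had 1022 FPKM in *heph2* and 1014 FPKM in the control. The log2 ratio of *GstD1* was 0.01 as deposited and -0.26 on mapped reads. Against genes of like transcript length and mean FPKM, *GstD1* was at -0.46 and *maf-S* at -0.04.

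**Figure D2:**
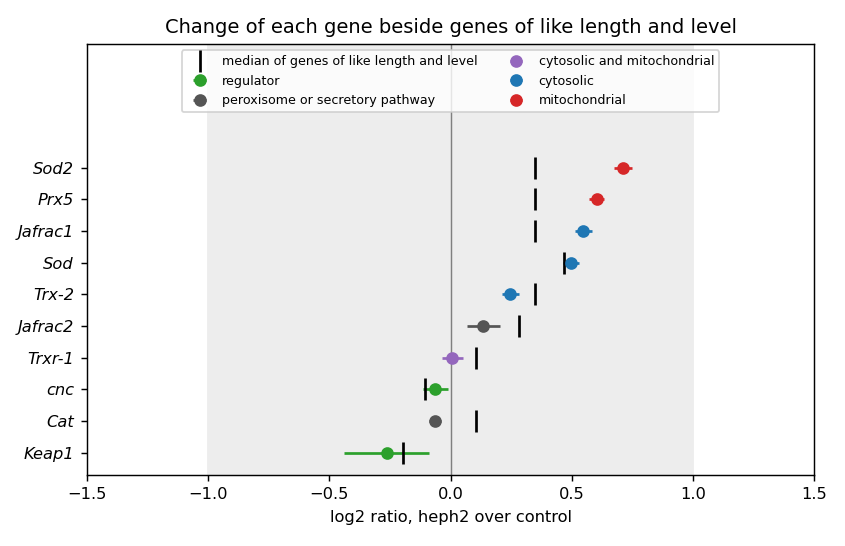
Log2 ratio of *heph2* over control for each of the 10 genes, with bars for the 95% counting interval only and a black tick at the median ratio of genes of like transcript length and mean FPKM. All points lie within the shaded range of less than 2-fold, and *Sod2* at 0.71 and *Prx5* at 0.60 lie farthest to the right of their tick, at 0.35.

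The mitochondrial enzymes were compared with the cytosolic ones directly. *Sod2* and *Prx5* had a median log2 ratio of 0.66, and *Sod*, *Jafrac1* and *Trx-2* had a median of 0.50. In all 6 pairs of a mitochondrial and a cytosolic gene the mitochondrial one had the higher ratio. The excess ran from 0.06 (*Prx5* over *Jafrac1*) to 0.46 (*Sod2* over *Trx-2*) on the log2 scale. A factor common to all genes of a library does not move these differences. The pairs reuse the same 5 genes and the same libraries, so they are not 6 separate observations. The *Prx5* value is also less certain, as given above. In a wider list of antioxidant genes the 5 mitochondrial genes, with *Prx5037*, *CG8993* and *Trxr-2* added, had a median of 0.60. The 9 cytosolic genes compared had a median of 0.13, but those added were all of other enzyme families. They were *Zw* and *Pgd* (NADPH supply), *Gclc* and *Gclm* (glutathione synthesis), *CCS* and *GstD1*. Other peroxiredoxins, such as *Prx2540-2* at 0.63, were placed in neither group, so these medians compare unlike sets of enzymes. The lowest mitochondrial ratio was that of *Trxr-2* at 0.20, below the 0.50 of *Sod*, so the groups overlapped. Nuclear genes of the respiratory chain and ATP synthase were also higher, with a median log2 ratio of 1.14 over 20 genes and a range from 0.48 to 1.80. Most were above *Sod2* and *Prx5*, but *SdhA*, *ND42* and *ND75*, at 0.48 to 0.58, were below both. The part of these 20 genes in the difference between both compartments was not tested.

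The log2 ratios differed with transcript length. Over all genes compared, the median was 0.34 for the 10% with transcripts of 660 to 905 nucleotides and -0.23 for the 10% with the longest transcripts. *Sod*, *Sod2*, *Jafrac1* and *Prx5* have median transcript lengths of 735 to 1091 nucleotides, while those of *Cat*, *Trxr-1*, *Keap1* and *cnc* are 1993 to 4742 nucleotides. *Jafrac2* and *Trx-2*, at 1047 and 1064 nucleotides, are as short as the first 4 but had lower ratios, of 0.13 and 0.25. When each ratio was taken against the median of genes of like length and level, *Sod* was at 0.03, *Jafrac1* at 0.20, *Prx5* at 0.25 and *Sod2* at 0.36. *Cat* was then at -0.17, *Jafrac2* at -0.15, *Trx-2* and *Trxr-1* at -0.10, *Keap1* at -0.07 and *cnc* at 0.04. On this scale 5 of the 10 genes were above and 5 below 0, with a median of -0.02, and 88.6% of genes were lower than *Sod2*. Both mitochondrial genes stayed above all 3 cytosolic ones.

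**Figure D3:**
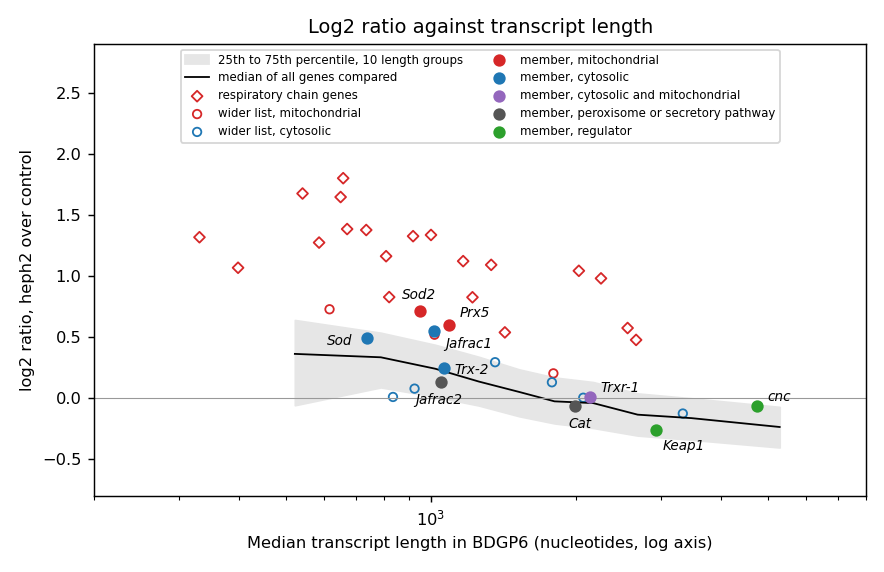
Log2 ratio of *heph2* over control against median transcript length (log axis) for the 10 genes (filled). Open circles are mitochondrial and cytosolic genes of the wider list, and diamonds are 20 respiratory chain and ATP synthase genes. The line is the median and the grey band the 25th to 75th percentile of all genes in 10 groups of length. The line descends with length, and *Sod2*, *Prx5* and *Jafrac1* lie above the grey band but below most diamonds.

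*Sod*, *Cat*, *Jafrac2*, *Prx5*, *Keap1* and *cnc* lie on chromosome 3, for which the 2 genotypes differ, and had a median log2 ratio of 0.04. The 4 genes on other chromosomes had a median of 0.40. Over all genes compared, the medians were 0.00 on chromosome 3 and 0.02 elsewhere. Set against genes of like length and level, the medians of the 6 and the 4 members were -0.02 and 0.05.

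Of the 54 genes of the wider antioxidant list, which includes the 10 members, 53 were in the table and 52 were compared. At least 2-fold, 3 were higher and 2 were lower in *heph2*, beside 2.79% and 2.44% of all genes compared. The list had a median log2 ratio of 0.33, with 44 genes higher and 8 lower, beside 6159 and 5803 of all genes compared. Centring on ribosomal protein genes, which puts the median of all genes at -0.43, gave 18 higher and 34 lower. Against genes of like length and level, 32 were higher and 20 lower. *MtnB*, a metallothionein, which binds copper and other metals, had 199 FPKM in *heph2* and 44.8 FPKM in the control, a log2 ratio of 2.15. *MtnC*, of the same family, went the other way, with 1399 FPKM in *heph2* and 3443 FPKM in the control, a log2 ratio of -1.30. *MtnA*, the most abundant metallothionein, had 6410 FPKM in *heph2* and 5713 FPKM in the control. *GstS1*, a glutathione transferase abundant in flight muscle, had 1285 FPKM in *heph2* and 477 FPKM in the control, a log2 ratio of 1.43. Of the 6 genes listed for flight muscle, *Act88F*, *fln* and *TpnC4*, at 2.21 to 2.68, were above *GstS1*. *Mf*, *up* and *wupA*, at 0.45 to 0.76, were below it. The part of flight muscle in the *GstS1* value was not tested. *CG12896* and *dhd*, given above, were the remaining genes past 2-fold. The glutathione synthesis gene *GS* was listed at 0 in both libraries.

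**Figure D4:**
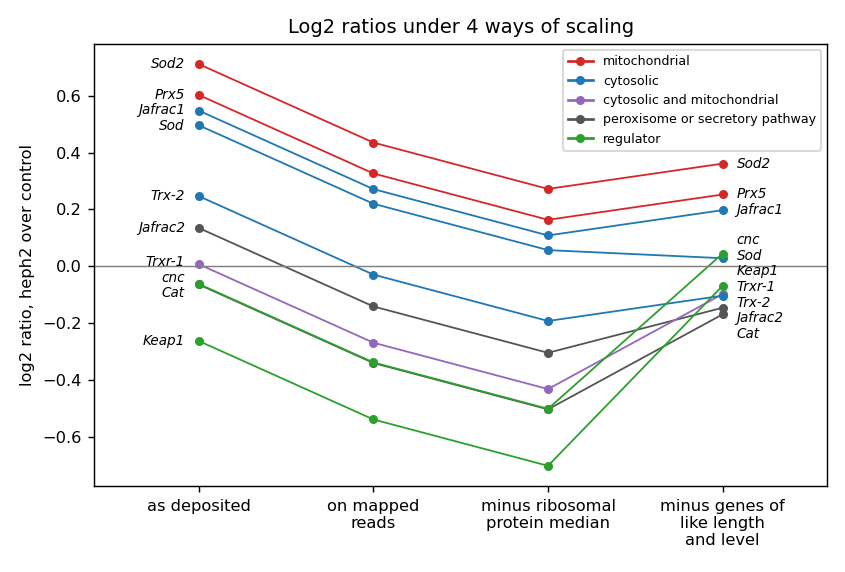
Log2 ratios of the 10 genes under 4 ways of scaling, as deposited, on mapped reads, relative to the cytosolic ribosomal protein genes and set against genes of like length and level, with 1 line per gene. The 2 rescalings in the middle move all lines by the same amount, so that 4 of the 10 genes stay above 0, and *Sod2*, *Prx5* and *Jafrac1* stay on top throughout.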

How the data were processed

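Per the labels and the study's methods, the authors mapped single reads with TopHat2 2.0.4 to FlyBase r5.44, ran Cufflinks 2.0.0 and deposited 1 FPKM value per gene for each of 2 libraries. A deposited column of log2 ratios, the authors' own comparison, was not used. FPKM values hold no read counts, so a count test was not possible. Reads per gene were estimated from the steps of low FPKM values, where 1 *heph2* read was worth 1.54 control reads, and from median transcript lengths in BDGP6 with fragments of 200 ± 80 bases. Of single-transcript genes with 1 to 10 estimated reads, 62.9% in *heph2* and 59.2% in the control came within 0.1 of a whole read. The 10 members had between about 404 and 33873 reads per library, and counting errors cover neither flies nor preparation. Genes sharing a locus entry have the position of the shared region, and 1 was added to each start. Ratios were taken without a pseudocount. To set a gene against others of like length and level, 10 groups of transcript length were each split into 5 by mean FPKM, and the median ratio of the gene's group was subtracted. Genes named are the members, their enzyme families, partners of *cnc* and genes of the wider list past 2-fold. *MtnE* and the testis gene *don* were not analysed here. Compartments were assigned from general knowledge. Members and lists were chosen with earlier results of these data known. The calculations used Python 3.11.15, numpy 2.4.6 and pandas 2.3.3. Only the 2-fold call and the estimate of the read step were tried on simulated data.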

Additional observations from a re-analysis of the deposited data

How the results depend on the processing

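No paired analysis was possible because each genotype had 1 library. Adding 0.1 or 1 to both values, dropping the minimum, raising it to a mean of 10 FPKM (which leaves out *Keap1*) and centring on the median of all genes moved no median reported for the members or the wider list by more than 0.1. The log2 ratio of no member moved by more than 1.5-fold in any of the 9 alternatives. The median of the 10 genes was -0.25 when centred on ribosomal protein genes, -0.085 on mapped reads, -0.020 against genes of like length and level, and 0.37 over the 6 members alone in their locus entry. The 2 members at least 1.5-fold higher became 0 under the first 3 of these and 1 under the last, where *Prx5* is left out, and 1 member, *Keap1*, was at least 1.5-fold lower when centred on ribosomal protein genes. Over all genes, 1096 were at least 1.5-fold higher and 868 lower, against 311 and 3967 when centred on ribosomal protein genes, 475 and 2310 on mapped reads, and 614 and 753 against genes of like length and level. The excess of mitochondrial over cytosolic members was 0.16, and 0.28 against genes of like length and level. In the wider list, whose added cytosolic genes are of other enzyme families, it was 0.47. There it was 0.27 against genes of like length and level and 0.25 over genes alone in their locus entry. The median of the wider list was -0.11 when centred on ribosomal protein genes and 0.053 on mapped reads and 0.047 against genes of like length and level, and with the first of these 1 gene of it in place of 3 was at least 2-fold higher, since *GstS1* at 0.99 and *CG12896* at 0.79 fell short. Over all genes compared, 334 were at least 2-fold higher and 292 lower, against 104 and 935 when centred on ribosomal protein genes, 171 and 594 on mapped reads, 204 and 364 against genes of like length and level, 469 and 566 with no minimum, and 256 and 126 with a minimum of 10. With 1 library per genotype, the spread between flies of 1 genotype is unknown.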
